A study of Mus musculus with 84 samples.

Results

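Gabrg1, the gene of the gamma-1 subunit of the GABA-A receptor, was followed in db/db mice treated by mouth with rosiglitazone (RSG) or with a compound known only as S. It was selected on its measured log2 ratio: its transcript stood far above the untreated pool in liver at the highest dose of S, so its values in the liver S 280 group, and their differences from the liver RSG 280 and S 28 groups, describe the choice and are given without a test. All spots whose gene name in the scanner files was Gabrg1 were taken: 2 probes of 41174, or 11 spots of 43379, for 1 gene name of 27845. RNA of liver and of inguinal adipose tissue (IAT) was measured on 168 Agilent 2-colour arrays. The mice carried the Leprdb mutation of the leptin receptor on the BKS background and were treated for 18 days. They formed, in each tissue, groups of 6 mice given RSG at 28, 84 or 280 µmol/kg and groups of 6 mice given S at the same molar doses. Each mouse was hybridised with exchanged dyes on 2 arrays against a single pool, made for each tissue from the RNA of db/db mice without treatment. All groups were thus diabetic mice, and since the pool was a single sample, the spread between untreated mice was in no comparison.

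GABA-A receptors are pentameric chloride channels that open when they bind GABA, the main inhibitory transmitter of the brain. Most receptors combine alpha and beta subunits with a gamma or delta subunit, and the gamma subunit shapes the response to benzodiazepines and the anchoring at synapses. The gamma-1 subunit is known mainly from restricted regions of the brain, in neurons and in glia. RSG is an agonist of PPARγ, a nuclear receptor of adipocytes, and PPARα, its relative in hepatocytes, governs genes of fatty acid oxidation. Both bind DNA with the retinoid X receptor at direct repeats of AGGTCA separated by a single base.

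The probes lie apart on chromosome 5 and are shown by position because they did not give the same result. By the annotation of the array (build mm8), the main probe (RefSeq transcript NM_010252) covers chr5:71031077-71031136 on the minus strand and is printed in 10 spots per array. The second probe (AK038686, a cDNA) covers chr5:71093388-71093447, also minus, 62.3 kb away, and is printed in 1 spot. The RefSeq table of promoters (build GRCm38.p6) holds 1 entry for Gabrg1. Its 250 bases before the transcript start, chr5:70842618-70842867 on the minus strand, are shown as the stretch next to the start of that entry. Whether the transcript measured in liver starts there was not tested. Capitals mark the single match to CCAAT, which is on the opposite strand and so reads ATTGG.
Gabrg1 upstream: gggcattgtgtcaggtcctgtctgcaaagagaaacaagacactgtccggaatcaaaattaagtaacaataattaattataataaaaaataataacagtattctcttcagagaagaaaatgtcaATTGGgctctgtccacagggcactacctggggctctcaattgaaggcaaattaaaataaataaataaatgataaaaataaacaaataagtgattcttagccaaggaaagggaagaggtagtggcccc
Searched on both strands, the window had no match to AGGTCANAGGTCA, which is in 0.0335% of the 32851 promoters of that table over the same length. It had none to AGGTCA (14% of promoters) or to TATAAA (12.4%), and 1 to CCAAT (33.8%). A and T made up 64.4% of its bases, against a median of 47.6% over all promoters, and 5.78% of promoters were at least as rich in them.

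In liver the treated channel was well above background for 43.4 to 65.8% of probes over the arrays, and in IAT for 61.8 to 78.2%. Between the 2 arrays of a mouse, which had exchanged dyes, the log ratios correlated between -0.940 and -0.614 before the sign was turned. Array files give each spot a log10 ratio of the channels, written here as log2 of treated mouse over pool. Where a channel is at background, the software puts a small substitute value in its place, and where both are, the ratio is set near 0. For a dim transcript these log2 ratios therefore give no fold change, and their order over mice need not be that of the signals. A fold is given below only as a bound.

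In the livers of the S 280 group Gabrg1 was plainly measured. On the arrays where the treated mouse was in Cy5, the signal above background of the main probe was 85.7, 104, 131, 182, 82.0 and 315 intensity units in the S 280 mice 1 to 6, against -4.87 to 2.22 units in the Cy5 channel of the pool on the arrays with exchanged dyes. In Cy3 the same livers gave 21.5, 23.1, 30.1, 51.6, 28.6 and 65.1 units, against -1.84 to 0.740 units for the pool in that dye. Every S 280 liver lay above every pool value in both dyes, and mice 4 and 6 were the brightest in both. Of the spots in use, 111 of 112 were well above background for the S 280 livers and 0 for the pool. A further 8 spots had been marked as outliers by the software and were left out, 3 of which had a pool signal well above background.

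The log2 ratios of the S 280 livers to the pool were 3.45, 3.87, 4.18, 5.15, 3.93 and 5.22 (4.30 ± 0.73, SD, n = 6). The lowest of them was above the highest of the other 30 treated livers, which was 1.96 in an S 84 liver. Since the pool gave only a bound, Gabrg1 was at least 5.07-fold higher in S 280 livers than in the pool, with bounds of 2.81 to 10.2 for single mice. Such a bound sets the mean level of the bright group against the lowest signal that is well above background on the arrays of the dim one, after scaling between arrays. On the same basis it was at least 4.75-fold higher in the S 280 than in the S 84 livers, and at least 4.87-fold higher than in the S 28 livers. Against it the RSG 280 livers were lower, by at least 4.23-fold. The 10 spots of an S 280 array agreed closely. Their median SD over spots on the log2 scale was 0.23 (treated mouse in Cy5) and 0.22 (Cy3), less than the spread between mice. On the S 84 arrays it was 0.37 and 0.86 in the same order, where the SD between mice was 0.65.

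**Figure D1:**
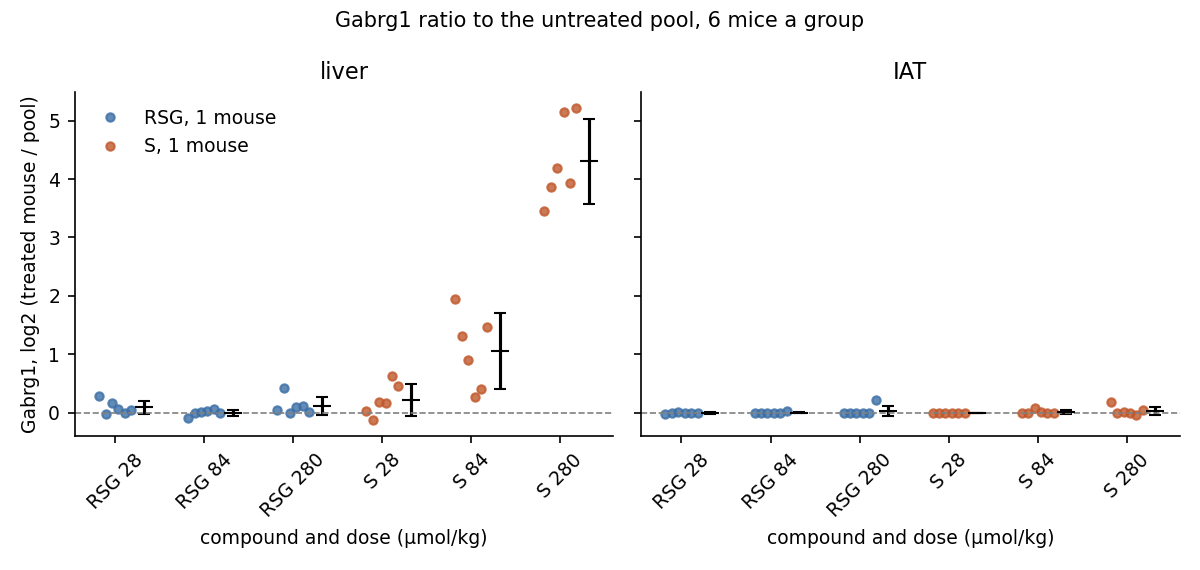
Log2 ratio of treated mouse over pool for the main probe of Gabrg1 in liver and IAT (y axis), by compound and dose in µmol/kg (x axis); each point is 1 mouse, and the black bar is the mean ± SD of 6 mice. The S 280 livers run from 3.45 to 5.22, the S 84 livers from 0.27 to 1.96, and all IAT samples lie between -0.03 and 0.21; ratios near 0 come from spots with both channels at background.

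The lower doses of S gave a weak signal or none. In the S 28 livers the Cy5 signal was 0.414 to 8.42 units (median 5.68), with log2 ratios of 0.04, -0.12, 0.18, 0.16, 0.63 and 0.46. In the S 84 livers it was 17.6, 15.1, 16.3, 3.77, 7.55 and 23.7 units, with log2 ratios of 1.96, 1.31, 0.91, 0.27, 0.40 and 1.47. S 84 mice 4 and 5 lay in the range of the S 28 group, and the other 4 lay above it. No array of either group had the probe well above background in most spots, and only 14 of 117 spots of the S 84 group were, so no fold is given for these doses.

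The main probe passed the filter on dim probes only through the S 280 group, for which the gene was chosen, and no array of another liver group had it well above background in more than 40% of its spots. In the limma fit over all 26020 tested liver sequences, the deposited ratio of the S 84 group was above 0, which with the pool at background gives a direction and no size (log2 ratio 1.05, SE 0.17, Benjamini-Hochberg adjusted p = 2.8e-06, above 0 in 6 of 6 mice). That comparison called 54.3% of the tested sequences, 14124 in all, so a call against the pool was common. The S 28 group was not called (0.22, SE 0.17, adjusted p = 0.27), in a comparison that called 51.3%. It was called with the authors' own combined ratios (0.43, limma adjusted p = 0.047), and was -0.42 with a block for the scan day (adjusted p = 0.47). S 84 against S 28 was 0.83 (95% interval 0.35 to 1.31) and did not pass (adjusted p = 0.64), and 0.0231% of sequences did. With the pool at background on the arrays of both groups, its substitute values need not cancel, and this difference gives no size. The S 28 and S 84 groups share the pool with the group that led to the choice of the gene. For each sequence the fit takes a single spread over all liver groups. The S 280 livers thus enter every SE, interval and limma p of Gabrg1 in liver. The SD of its ratio over mice was 0.05 in RSG 84, 0.65 in S 84 and 0.73 in S 280 livers. The common SE is thus too small for the S 84 mice, and so is their limma p against the pool. The S 84 call against the pool was lost with normexp background correction and loess (0.11, limma adjusted p = 0.21). That setting adds an offset of 50 units, and the cause of the loss was not tested.

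RSG livers showed no such signal at any dose. The log2 ratios of the RSG 28 livers were -0.01 to 0.29 (median 0.06), those of the RSG 84 livers -0.08 to 0.07 (median 0.00), and those of the RSG 280 livers -0.01 to 0.43 (median 0.07). Over the 18 RSG livers, the Cy5 signal was -7.12 to 11.3 units (median -0.681), and the highest value was that of RSG 280 mouse 2. None of their spots in use was well above background in either channel. The group means were 0.09 (adjusted p = 0.65), 0.00 (adjusted p = 0.99) and 0.12 (adjusted p = 0.59) at 28, 84 and 280 µmol/kg in the limma fit, in comparisons that called 58.5, 56.5 and 50.9% of sequences. Against RSG 28, RSG 84 differed by -0.09 (95% interval -0.57 to 0.39, adjusted p = 1) and RSG 280 by 0.02 (-0.46 to 0.50, adjusted p = 0.98), in comparisons that called 0 and 0.0115% of sequences.

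Set against each other at the same dose, the compounds differed in their deposited ratios at 84 µmol/kg, a call that did not hold under 2 alternatives. RSG 84 minus S 84 was -1.05 on the log2 scale (95% interval -1.53 to -0.57, limma adjusted p = 0.015), and that comparison called 1.73% of sequences. It was -0.11 with normexp and loess (adjusted p = 0.67) and -0.91 with a block for the scan day (adjusted p = 0.55). At 28 µmol/kg the difference was -0.13 (-0.61 to 0.35, adjusted p = 0.87), where 0.869% were called. The descriptive difference at 280 µmol/kg, from a contrast the choice used, was -4.19, and 27.6% of sequences were called there. The compounds were compared in liver at 3 doses, and the adjustment ran over all sequences within each.

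The same contrast was made on the signals themselves, without the pool, by a two-sided exact permutation test of 6 against 6 livers, chosen after the data had been seen. At 84 µmol/kg the Cy5 signal averaged -3.19 ± 3.19 units in RSG livers and 14 ± 7.21 units in S livers (SD), and the Cy3 signal averaged -1.28 ± 0.62 and 3.08 ± 2.03 units. The groups did not overlap in either dye, and p was 0.00216, the smallest this design allows (0.0108 adjusted over 10 tests in both tissues and dyes). The 2 dyes read the same livers, and the signals were not scaled between arrays. The pool, too, read lower on the RSG 84 than on the S 84 arrays, at -1.37 ± 0.81 against 0.01 ± 0.77 units in Cy3. In Cy5 the pool read -0.30 ± 2.84 against 0.74 ± 2.02 units. The share of all probes without overlap is not given here. At 28 µmol/kg the Cy5 signal averaged -0.341 ± 3.04 units in RSG livers and 4.74 ± 2.93 units in S livers, which was not called after adjustment (exact permutation, adjusted p = 0.0577), and the Cy3 difference was -1.08 units (adjusted p = 0.384).

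Scan days were shared unevenly between the liver groups, which bears on the dim doses. RSG 84 and S 84 livers shared no day. With the day as a block, S 84 against the pool was still called (0.99, limma adjusted p = 0.0024). The same block turned S 28 against the pool to -0.42 (adjusted p = 0.47) and left RSG 84 minus S 84 uncalled (-0.91, adjusted p = 0.55). Days 7 and 8 hold S 280 livers, so the values that led to the choice of the gene enter the day effects. Within day 6, the Cy5 signals of S 84 mice 1 and 2 were 17.6 and 15.1 units, above all 6 S 28 livers at 0.414 to 8.42. Within day 7, S 280 mice 1 to 4 gave 85.7 to 182 units, against 3.77 to 23.7 in S 84 mice 3, 4 and 6. Within day 8, S 280 mice 5 and 6 gave 82.0 and 315 units, S 84 mouse 5 gave 7.55, and the RSG 280 mice 5 and 6 gave 2.25 and 1.18. The S 280 values led to the choice of the gene, so their place within days 7 and 8 is a description only.

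**Figure D2:**
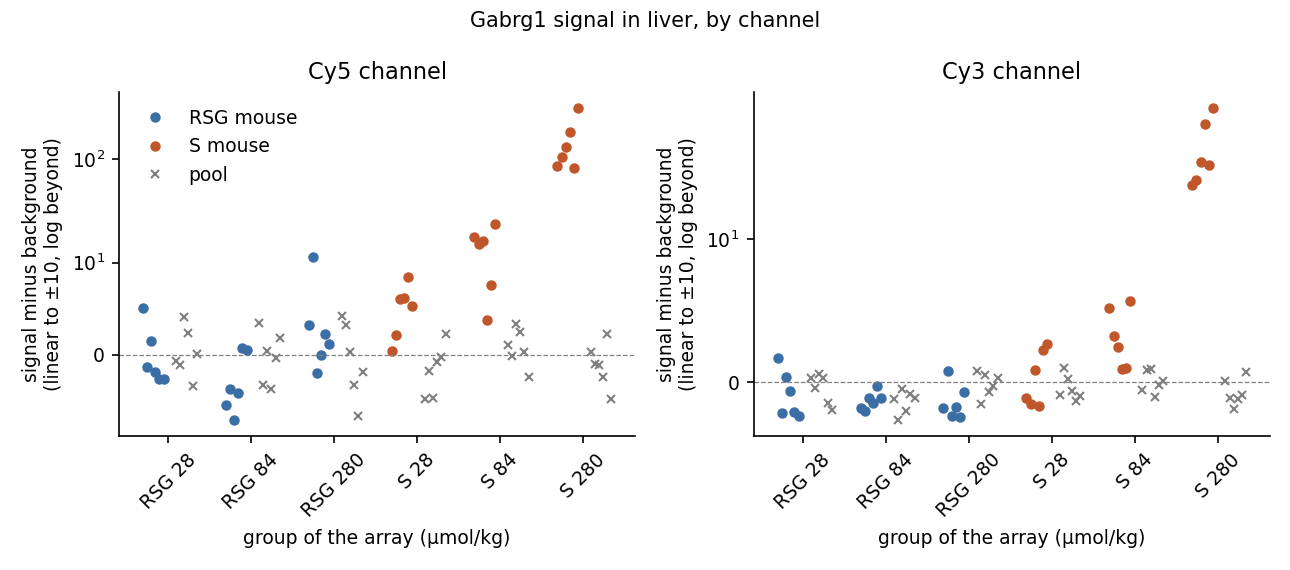
Signal minus background of the main Gabrg1 probe in liver (y axis, intensity units, linear to ±10 and logarithmic beyond), in the Cy5 and the Cy3 channel, by the group of the array; circles are treated mice and crosses the pool in the same dye, from the arrays with exchanged dyes. S 280 livers stand at 82.0 to 315 units in Cy5 and at 21.5 to 65.1 units in Cy3, while the pool stays between -6.69 and 4.16 units.

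In IAT Gabrg1 was not detected in any group. The log2 ratios of the 36 treated samples ran from -0.03 to 0.21, with a median of 0.00, and no spot in use of the main probe was well above background in either channel on the 72 arrays. The highest group means were 0.03, at RSG 280 and at S 280. The probe did not pass the filter on dim probes, and with all probes tested the adjusted p (limma) was 0.2 for RSG 280 and 0.22 for S 280. Between RSG and S the Cy5 signals of IAT differed by 5.41, -1.70 and 2.20 units at 28, 84 and 280 µmol/kg, none called by the exact permutation test (adjusted p = 0.103, 0.362 and 0.935). Since ratios of IAT are set near 0 by the software, and the tissues have separate pools, the size of the response was not compared between liver and IAT.

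The second probe did not show the rise. In the S 280 livers its log2 ratio was 0.00 in all 6 mice, both channels being at background, and no liver array of any group had it well above background. Of the 36 treated livers, 34 had a ratio of 0.00, and the others were 0.60 in S 28 mouse 2 and -0.40 in RSG 28 mouse 3. In IAT its pool channel was well above background on 1 array. The probes thus disagree on the S 280 livers, and everything else said of Gabrg1 rests on the main probe. Whether the second probe reads a transcript of the gene that liver makes was not tested.

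Which mice gave the technical repeats of liver RNA is not in the labels. These repeats, 6 hybridised pairs each for RSG 28 and S 28, show the array error of a transcript at background. Their log2 ratios were 0.13 ± 0.08 for RSG 28 and 0.06 ± 0.07 for S 28 (SD, n = 6 pairs), against 0.09 ± 0.11 and 0.22 ± 0.28 over the 6 mice of these groups. In these repeats the Cy5 signal was 1.49 to 11.2 units for RSG 28 and -13.9 to 6.66 for S 28, so the order of the compounds at 28 µmol/kg was turned round. The lowest S 280 liver, at 82.0 units, stood above all of these repeats.

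The other subunits of the GABA-A receptor did not follow Gabrg1 in liver. Of 19 subunit genes listed, 18 had a probe and 8 passed the filter on dim probes, Gabrg1 among them. At RSG 280, 1 of the 8 was called lower and 0 higher, against 21.4% of all tested sequences called higher and 29.5% called lower. At S 280, where 27.9% of all were called higher and 37.9% lower (65.8% together), 2 were lower and Gabrg1 was the only one higher, by the choice of the gene. The median log2 ratio of the 8 was 0.03 at RSG 280 and -0.14 at S 280, beside -0.03 and -0.05 over all tested sequences. Gabrr1, a rho subunit known from the retina, had ratios of -0.36 ± 0.06 at RSG 280 (limma adjusted p = 1.8e-06) and -0.72 ± 0.22 at S 280 (adjusted p = 3.4e-13), and its mean was below the pool in every group of both compounds. Gabrg3, another gamma subunit, was at -0.16 ± 0.24 at RSG 280 (adjusted p = 0.25) and -0.42 ± 0.36 at S 280 (adjusted p = 0.0014). Gabra3, Gabra5, Gabrd, Gabre and Gabrp, which encode alpha-3, alpha-5, delta, epsilon and pi subunits, were not called at either compound's 280 µmol/kg, with mean ratios of -0.14 to 0.17 at RSG 280 and -0.19 to -0.02 at S 280. Gabra2, Gabra4, Gabra6, Gabrb1, Gabrb2, Gabrq and Gabrr2 were among the subunits whose probes did not pass the filter.

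In IAT, 9 of the 18 subunits passed the filter, and Gabrg1 did not. At RSG 280, 5 were called higher and 3 lower, and at S 280 4 were higher and 2 lower, in comparisons that called 66.3% (36.5% higher, 29.8% lower) and 74.1% (42% higher, 32.1% lower) of all sequences. Gabrg3 was at 0.50 at RSG 280 (limma adjusted p = 6.1e-06) and 0.81 at S 280 (adjusted p = 5.2e-10). In liver it was below the pool at S 280, and the difference between the tissues was not tested for it. Gabra5 was at 0.35 (adjusted p = 5.7e-04) and 0.58 (adjusted p = 4.2e-07), and Gabra3 at 0.29 (adjusted p = 1.8e-05) and 0.37 (adjusted p = 2.7e-07). Gabrp was called at RSG 280 (2.56, adjusted p = 0.0042) and not at S 280 (0.79, adjusted p = 0.35). Gabrd was lower at both, and Gabrr1 higher. Gabrr2 was measured in the pool on all arrays of the S 280 group and was well above background for 8.33% of the S 280 samples' arrays.

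**Figure D3:**
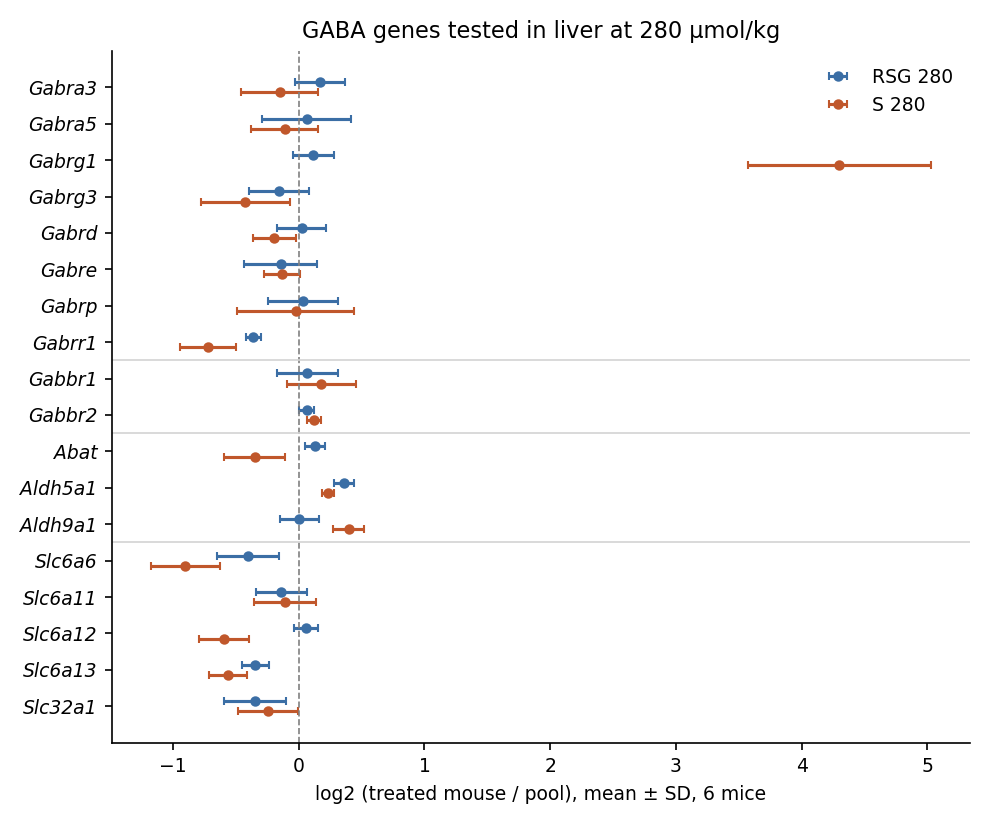
Log2 ratio of treated mouse over pool in liver at 280 µmol/kg (x axis, mean ± SD of 6 mice) for the tested genes of GABA-A subunits, GABA-B subunits, GABA breakdown and GABA transport (y axis, grey lines between lists), RSG 280 above S 280 in each row. Gabrg1 at S 280, 4.30, is the one value beyond ±1, and its pool channel was at background.

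Genes of the GABA-B receptor and of GABA breakdown and transport had liver ratios within 1 of 0 at RSG 280 and at S 280. Of the GABA-B subunits, which form a receptor coupled to G proteins, Gabbr2 was at 0.06 at RSG 280 (limma adjusted p = 0.028) and 0.12 at S 280 (adjusted p = 7.5e-05), and Gabbr1 was not called. Of 5 genes of synthesis and breakdown, 3 were tested. Abat, the GABA transaminase, was at 0.13 (adjusted p = 0.044) at RSG 280 and at -0.35 (adjusted p = 7.4e-07) at S 280. Aldh5a1, which oxidises succinic semialdehyde, was higher with both, at 0.36 and 0.23. Aldh9a1 was at 0.01 (adjusted p = 0.95) at RSG 280 and 0.40 (adjusted p = 3.6e-06) at S 280. Of the transporters, 3 of 5 tested were lower at each compound's 280 µmol/kg and none was higher, where 29.5% (RSG 280) and 37.9% (S 280) of all sequences were lower. Slc6a6, the taurine transporter, was at -0.40 and -0.90, and Slc6a13, GAT2 of liver, at -0.35 and -0.56 at RSG 280 and S 280. Slc6a12, the betaine and GABA transporter, was at 0.06 (adjusted p = 0.36) at RSG 280 and -0.59 (adjusted p = 3.4e-12) at S 280, and Slc32a1, the vesicular carrier, was called at RSG 280 (-0.35, adjusted p = 0.017).

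Among 13 genes for the assembly, anchoring and trafficking of the receptor, all tested, 2 were higher and 3 lower at RSG 280, and 2 were higher and 5 lower at S 280. Of all sequences 21.4% were higher and 29.5% lower at RSG 280, and 27.9% higher and 37.9% lower at S 280, so these counts lie near or below the background. Gphn, the scaffold protein gephyrin, was at -0.20 at RSG 280 (limma adjusted p = 6.7e-06) and -0.24 at S 280 (adjusted p = 2.4e-07). Of 23 genes of other pentameric channels, the nicotinic, glycine and serotonin receptors, 8 were tested in liver. Chrna4, a nicotinic subunit of brain, was at 2.14 ± 0.85 at RSG 280 (limma adjusted p = 9.6e-08) and 2.99 ± 0.24 at S 280 (adjusted p = 2.5e-11), and Chrna2 at 0.91 and 1.64, so these channel genes rose with RSG as well as with S. Chrna10 was at -0.27 (adjusted p = 0.07) and -0.89 (adjusted p = 2.1e-07), and Chrnb2, dim in the treated livers, was lower with both.

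In IAT, 6 of the 13 assembly and trafficking genes were higher and 3 lower at RSG 280, and 10 were higher and 2 lower at S 280. Of all IAT sequences 36.5% were higher and 29.8% lower at RSG 280, and 42% higher and 32.1% lower at S 280. Ubqln1 was at 1.24 at RSG 280 and 1.52 at S 280, the highest mean of the list in each group. Abat, by contrast, was at -1.11 and -1.57, and Slc6a6 at -1.34 and -1.46. Chrna2 was at 2.13 (limma adjusted p = 1.4e-16) and 2.54 (adjusted p = 1.3e-18). These lists, like those for liver, were drawn up with earlier results of these data known.

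The neighbours of Gabrg1 on chromosome 5 did not show its pattern. In the gene order of the RefSeq table (GRCm38.p6) the 5 nearest genes with a probe on one side are Gnpda2, Guf1, Yipf7, Kctd8 and Atp8a1, and on the other Gabra2, Cox7b2, Gabra4, Gabrb1 and Commd8, so 3 other GABA-A subunit genes lie beside it. At S 280 in liver the 5 tested neighbours were between -0.37 (Atp8a1, limma adjusted p = 0.0042) and 0.14 (Guf1, which encodes a mitochondrial elongation factor, adjusted p = 5.0e-05), while Yipf7 was at -0.27 (adjusted p = 0.029) and Gnpda2 and Commd8 were not called. Probes of Gabra2, Cox7b2, Gabra4 and Gabrb1 were well above background on 0% of these arrays in either channel, and Kctd8 on 8.33%. In IAT Guf1, Gnpda2 and Commd8 were higher at S 280, by 0.39, 0.29 and 0.23, and Yipf7 and Atp8a1 were lower, at -1.98 and -0.29.

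The genes with deposited ratios next to that of Gabrg1 at S 280 in liver are given as a description, since the pool level of Gabrg1 is only a bound and its place among them has no meaning as an order. They were Fabp5, Fabp3, Meig1, Tex19.1 and Acot5 on the higher side, and Lpl, Gprc5b, Aqp7, Fignl1 and Elovl7 on the lower. At RSG 280 their means ran from 0.79 (Fabp3, a fatty acid binding protein of muscle) to 4.34 (Elovl7, an elongase of fatty acids), against 0.12 for Gabrg1. Those with the pool measured on all S 280 arrays were Lpl, lipoprotein lipase (2.80 ± 0.53 at RSG 280 and 4.20 ± 0.16 at S 280), Acot5, a peroxisomal thioesterase (2.89 ± 0.40 and 4.30 ± 0.40), and Fabp3 (0.79 ± 0.75 and 4.41 ± 0.20).

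The genes most like Gabrg1 over the log2 ratios of the 36 treated livers were found by correlation. Among 21147 sequences with a gene symbol, the highest Pearson correlations were those of Hsd17b11, a lipid droplet dehydrogenase (0.96), Tbca, a tubulin cofactor (0.96), Slc3a2, the heavy chain of amino acid transporters (0.95), Cpt1b, the muscle form of carnitine palmitoyltransferase (0.94), Acot1, a cytosolic thioesterase (0.94), Pdcd5 (0.94), Qpct, glutaminyl cyclase (0.94), and Acadl, long-chain acyl-CoA dehydrogenase (0.93). These livers share 1 pool and fall into groups, and the S 280 group sets most of each value. Without it the correlations over the other 30 livers were 0.70, 0.70, 0.36, 0.77, 0.75, 0.50, 0.61 and 0.66 in the same order.

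Acot1 had 0.72 ± 0.32 at RSG 280 and 3.67 ± 0.99 at S 280, and Cpt1b had 0.50 ± 0.17 and 2.62 ± 0.66. Hsd17b11 had 0.82 ± 0.15 and 2.68 ± 0.47. Slc3a2 was below the pool at RSG 280 (-0.31 ± 0.07) and above it at S 280 (0.41 ± 0.21). All 8 were measured in both channels on all S 280 arrays. In IAT, where Gabrg1 was not detected, the 8 differed in sign. At RSG 280 and S 280, Cpt1b was at 1.57 and 1.75, Acadl at 0.99 and 1.10, and Acot1 at 1.29 and -0.27. Hsd17b11 was at 0.53 and -0.06, Tbca at 0.15 and 0.18, and Slc3a2 at 0.01 and 0.30. Pdcd5 was at 0.18 and 0.14, and Qpct at -0.87 and -0.665.

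**Figure D4:**
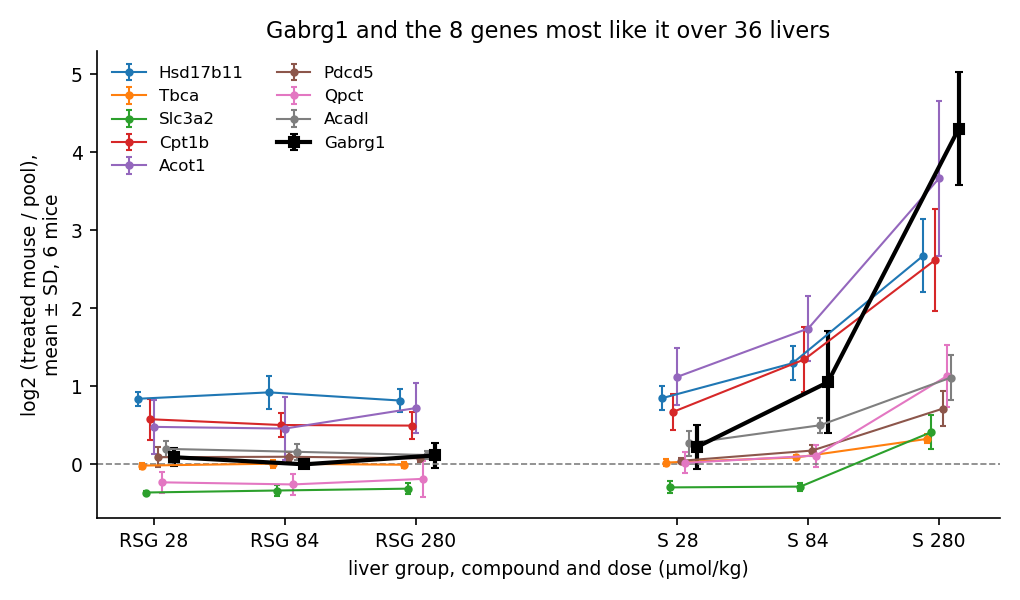
Log2 ratio of treated mouse over pool in liver (y axis, mean ± SD of 6 mice) by compound and dose (x axis) for Gabrg1 (black squares) and the 8 genes with the highest correlation with it over 36 livers (colours). All 9 have their highest mean at S 280, from 0.33 for Tbca to 4.30 for Gabrg1. The S 280 livers set most of each correlation, so this shared peak follows from how the genes were picked.

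The genes running most against Gabrg1 were Cd59a, a complement inhibitor (-0.95), Iscu, an iron-sulfur scaffold (-0.93), and Hibadh and Sfxn5 (-0.91 each). Cd59a had -0.18 ± 0.05 at RSG 280 and -0.998 ± 0.20 at S 280. When group means were subtracted, so that only differences between mice of a group were left, the highest correlations were those of Las1l (0.78), N6amt1 (0.77), Rrp15 (0.73), Rpf2 (0.73), Brix1 (0.71), Twistnb (0.71), Bcl7a (0.71) and Acot1 (0.70). Over the 30 livers without the S 280 group, and with group means not subtracted, the correlations of these 8 were 0.33, 0.25, 0.20, 0.28, -0.19, 0.44, 0.04 and 0.75 in the same order. Correlations within groups but without S 280 are not given here. Acot1 was the one gene in both sets of 8.

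Of 18 genes listed as targets of PPARs, 16 were tested in liver, of which 12 were higher and 2 lower at RSG 280, and 14 were higher and 2 lower at S 280. Of all sequences 21.4% were higher and 29.5% lower at RSG 280, and 27.9% higher and 37.9% lower at S 280. Their median log2 ratio was 0.83 at RSG 280 and 2.14 at S 280, beside -0.03 and -0.05 over all sequences. Cyp4a10, a fatty acid hydroxylase, was not called at RSG 280 (0.07, limma adjusted p = 0.53) and was higher at S 280 (1.46, adjusted p = 6.2e-15), and Ehhadh, of peroxisomal oxidation, was at 1.68 and 3.20. In IAT 18 were tested, with medians of 0.99 and 1.03.

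Markers of cell types were counted in the S 280 livers, where 27.9% of all sequences were higher and 37.9% lower, with a median of -0.05. All 11 hepatocyte markers were well above background, with a summed log2 signal of 20.2 to 21.3 in S 280 livers and 20.9 to 21.5 in the pool on the same arrays. Of these 9 were lower and 1, Apoa1 (2.14), was higher, with a median of -0.55. Alb, albumin, was at -0.13 (limma adjusted p = 0.094), and Ahsg and Fgb were lower at S 280 (-0.86 and -0.61). Of 13 neuron markers 5 were measured, with a summed log2 signal of 10.01 to 10.6 in S 280 livers and 10.4 to 10.7 in the pool. The brightest of them were Tubb3 (-0.06), Syt1 (-0.85) and Rbfox3 (-0.24), all lower at S 280, and of 5 tested 3 were lower and 1, Uchl1 (0.52), was higher. Of 8 markers of glia and Schwann cells 7 were measured, with sums of 10.8 to 11.6 in S 280 livers and 12.2 to 12.6 in the pool, and Slc1a2, which hepatocytes express too, and Aqp4 were at -1.65 and -0.80. Sox10 was at -0.21. Of these 8, 4 were lower and 1, Mbp (0.34), was higher.

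All 7 markers of stellate cells and pericytes were measured in S 280 livers, at sums of 12.6 to 13.2 there and 12.8 to 13.1 in the pool. Acta2 (0.03, limma adjusted p = 0.56) and Rgs5 (-0.10, adjusted p = 0.24) were not called, and Reln was lower (-0.54). Of the 7, 3 were lower and 2, Lrat (0.62) and Ngfr (0.21), were higher. Of 9 markers of bile duct and epithelium 6 were higher and 1, Krt5 (-0.13), was lower at S 280, with a median of 0.39 and sums of 16.1 to 17.1 in S 280 livers and 15.6 to 16.0 in the pool, among them Krt18 (0.73), Spp1 (1.00) and Cdh1 (0.74). Of 9 tested adipocyte markers 5 were higher and 2, Retn (-0.47) and Slc2a4 (-0.84), were lower at S 280, with a median of 0.13, and the brightest were Fabp4 (5.60), Cidec (3.42) and Pparg (0.13). Their summed log2 signal was 17.7 to 19.2 in S 280 livers and 13.4 to 14.1 in the pool. At RSG 280, where Gabrg1 was not detected, that sum was 16.4 to 18.1 in treated livers. Skeletal muscle markers were lower, 6 of 6 tested (37.9% of all sequences were), with Myh2, Mylpf and Acta1 the brightest, and of the 3 tested pancreas markers Cel was higher (0.20) and Ctrb1 lower (-0.14), Cela1 having no tested probe. The part of these cell types in the Gabrg1 signal was not tested, and in whole tissue a change in the number of cells of a type cannot be told from a change in RNA per cell.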

How the data were processed

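Arrays were read by the authors with Agilent's Feature Extraction software (9.5), and the deposited files give for each of 45018 spots a log10 ratio of red over green corrected for background and dye, intensity values of both channels, and marks for spots that were uneven, saturated or well above background. They also deposited a log10 ratio table of the samples, used as an alternative. Of its 84 columns 80 correlate with their own arrays at 0.953 or more. The others are IAT S 84 mouse 6 (0.14) and IAT S 280 mice 4, 5 and 6 (0.83, 0.90 and 0.84). Their combined values came from Rosetta Resolver per the methods, which was not used here.

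Ratios were turned to log2 of treated mouse over pool, spots marked as outliers were left out, and values were averaged over the dye-swap pair and then over the spots of a probe. Sequences were tested in liver (26020) and IAT (31422) where 50% or more of some group's arrays had the treated or the pool channel well above background. Group means and contrasts came from limma (version 3.58.1, R version 4.3.3) with 36 mice of a tissue in each fit, Benjamini-Hochberg adjustment, and calls at 0.05. The fit was tested on simulated data. Limits of a dim channel used Aquantile scaling. Exact permutation tests used scipy. Gene symbols of 23374 of the 25617 probes with a RefSeq accession came through RefSeq accessions from the reference table, and the others kept the file's name. The precision of a dim probe is limited by the number of arrays. Replicates are separate mice of a group per the labels.

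Named were Gabrg1, tested GABA-A subunits, called members of the GABA and channel lists (at most 6 a list), 5 neighbours on each side, the 8 highest and 4 lowest correlations, 8 within groups, 5 genes on each side by ratio, and the 3 brightest of each marker list. The PPAR targets shown and the markers that ran against their list were picked after their values were seen. The gene, lists and rules were chosen with earlier results of these data known. Alternatives covered background correction, the filter, the table, each dye, weighting, centring, blocks and leaving out mice. Soleus muscle, which the study also took, was not analysed here. Some members of the lists are counted but not reported by name here.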

Additional observations from a re-analysis of the deposited data

Results flagged for a closer look

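Single mice stood apart from the other 5 of their group in the log2 ratio of Gabrg1 in 11 of 18 groups with any spread, counting each probe by itself. The rule expects about 1 in 20 groups for normally spread values, which does not hold here, since the software sets many ratios to 0.00. For the second probe the other 5 values of each such group were 0.00. The median of the main probe was 0.00 in the IAT groups RSG 28, RSG 84, RSG 280 and S 84. The mice flagged for the main probe were RSG 280 mouse 2 in liver (0.43) and, in IAT, RSG 28 mouse 1 (-0.0243), RSG 84 mouse 6 (0.0299), RSG 280 mouse 6 (0.21), S 84 mouse 3 (0.082) and S 280 mouse 1 (0.18). The Cy5 signal of IAT RSG 280 mouse 6 was 23.6 units, where the other 5 were below 0, and its Cy3 signal was -3.77. For the second probe they were RSG 28 mouse 3 (-0.40) and S 28 mouse 2 (0.60) in liver, and RSG 28 mouse 3 (-0.42), RSG 84 mouse 2 (-0.19) and S 84 mouse 5 (0.30) in IAT. At 84 µmol/kg S the deposited log2 ratio was above that of IAT in liver by 1.04 (exact permutation test over 6 against 6 samples, adjusted p = 0.0108). The IAT ratios are set near 0 because both channels were at background, and the tissues have separate pools, so this value is no measure of a difference in effect.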

How the results depend on the processing

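The S 84 call against the pool in liver was lost with normexp and loess (0.11, limma adjusted p = 0.21), under which S 280 was 1.06, RSG 280 minus S 280 was -1.05 and S 280 minus S 28 was 1.03. RSG 84 minus S 84 lost its call with normexp and loess (-0.11, adjusted p = 0.67) and when the day of scanning was added as a block (-0.91, adjusted p = 0.55). That block also turned S 28 against the pool to -0.42 (adjusted p = 0.47) and RSG 28 minus S 28 to 0.62 (adjusted p = 0.75), and gave 4.94 for S 280 minus S 28. With the deposited ratio table S 28 was called (0.43, adjusted p = 0.047) and RSG 84 minus RSG 28 was 0.0119. Signs near 0 turned for RSG 84 against the pool with the Cy3 arrays alone (-0.0027), normexp (-0.0068) and weighting by the ratio error (-0.0017), and for RSG 280 minus RSG 28 with the Cy3 arrays alone (-0.0364). The causes were not tested.

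Over all sequences, the scan day block left 4794 calls for S 28 against 13340 without it, and 0 for RSG 28 against S 28, RSG 84 against S 84 and S 84 against S 28. RSG 28 against S 28 had 226 calls, 116 with the Cy5 arrays alone and 97 with normexp. S 84 against S 28 had 6 calls and 3 without the filter on dim probes. In IAT the scan day could not be fitted for S 280, whose arrays shared no day with another group.

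The replicate number did not pair mice (correlations of deviations between same-numbered mice were -0.275 to 0.484 in liver, median 0.094, and -0.515 to 0.676 in IAT, median 0.126). With a replicate block S 84 against S 28 had 3 calls, and no call on Gabrg1 changed.

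With each mouse left out in turn, values were -0.011 to 0.019 for RSG 84 against the pool, -0.04 to 0.0614 for RSG 280 minus RSG 28, 0.87 to 1.21 for S 84 (highest adjusted p = 6.0e-05) and -1.21 to -0.87 for RSG 84 minus S 84 (highest adjusted p = 0.047). Calls ran from 65 to 289 for RSG 28 against S 28, 259 to 514 for RSG 84 against S 84 and 3 to 6 for S 84 against S 28. The permutation tests on signals and between tissues were added after the data had been seen. At the lower doses both channels were at background, which limits every ratio there.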
